A study of Mus musculus with 6 samples.

Results

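The Pax genes encode transcription factors that bind DNA through a paired domain, and 7 of them were followed here through the 25595 genes of the count table: Pax1, Pax2, Pax3, Pax6, Pax7, Pax8 and Pax9. The members were chosen by gene symbol, and all 7 had a row in the table. Pax5 was in the table but is not described as a member, and its 16 UMIs over all cells left nothing to compare.

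Pax genes mark territories of the forming trunk. Pax3 and Pax7 are closely related and are active in the dorsal neural tube and in the dermomyotome, the dorsal part of the somite that gives muscle and dermis. Pax1 and Pax9 form another pair, active in the sclerotome, the ventral part of the somite that gives vertebrae and ribs, and Pax9 is also used in pharyngeal endoderm. Pax6 patterns the neural tube and the eye. Pax2 and Pax8 act together in the intermediate mesoderm that forms the kidney, and both are also used in neural tissue. A presomitic mesoderm (PSM) cell turns on Pax3 as it approaches somite formation.

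The cells came from stembryos, aggregates of mouse embryonic stem cells (mES cells, genotype wt) that extend a trunk-like axis after a pulse of a Wnt agonist. Whole stembryos had been taken 96 h and 120 h after aggregation, with 2 libraries per time, and 1 more pool at 120 h had been dissected, giving 1 library of the anterior and 1 of the posterior end. Each library was a pool of stembryos from the same wild-type cells, nothing in the labels states whether replicates were separate cultures, and p-values measure the spread between these samples. Stembryos without elongation at 120 h had been left out by the study, so the 2 times differ in selection as well as in age.

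The libraries held 2649 to 7887 cells, 26968 in all, and 24303317 to 117580506 UMIs, the unique molecular identifiers that count captured transcripts. Depth differed between replicates: replicate 2 had a median of 8723 UMIs per cell at 96 h and 9662 at 120 h against 22811 and 16375 in replicate 1. The authors' 12 clusters were used as deposited, with 75 barcodes found in more than 1 library. Their names were checked against marker lists: 8 of 8 endoderm markers, 8 of 8 pluripotency markers, 7 of 9 PSM markers, 6 of 9 markers of neuromesodermal progenitors (NMPs) and 6 of 10 spinal cord markers were highest in a cluster of that name. Only 3 of 8 somite markers were highest in a somite cluster, and their summed level peaked in the determination front, where PSM cells become somites. With libraries pooled, the neural crest markers Sox10 and Foxd3 were at or below 0.610 CPM (counts scaled to 1e6 UMIs) in every cluster except the pluripotent one. The intermediate mesoderm marker Osr1 was at or below 0.620 CPM in all 12 pooled clusters. By library it was uneven, at 3.04 ± 4.30 CPM (SD, n = 2) in PSM cells of the whole 120 h libraries. Other genes of these lists, which are also used in other tissues, were higher, with Lhx1 at 19.1 CPM in Early PSM, Wt1 at 13.3 CPM in Somite A, Snai2 at 8.35 CPM in Somite B and Emx2 at 6.95 CPM in NMPs C. The 4 intermediate mesoderm markers summed to at most 54.8 CPM, in Early PSM of replicate 2 at 96 h.

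Paralogs of this family resemble each other, and the longest coding stretch that each close pair shares in 1 transcript per gene is shown, because a read lying wholly inside it names no single gene. The capitals mark the identical bases, and the lower case letters are the neighbouring bases of each gene.
Pax1: aaATCCTGGCGCGCTACAACGAGACCGGct
Pax9: agATCCTGGCGCGCTACAACGAGACCGGtt
Pax3: cgCTGGAAGTGTCCACCCCTCTTGGCCAgg
Pax7: ccCTGGAAGTGTCCACCCCTCTTGGCCAag
Pax2: gGGCAGGTACTACGAGACTGGCAGCATCaa
Pax8: tGGCAGGTACTACGAGACTGGCAGCATCcg
The sequences are from GENCODE M21 on mm10. The Pax1 stretch lies in exon 2 at chr2:147365892-147365921 on the plus strand, and the Pax9 stretch in exon 3 at chr12:56696733-56696762 on the plus strand. The other 4 cross an exon junction, so their outer coordinates include an intron: chr1:78195466-78196673 for Pax3 and chr4:139830353-139832835 for Pax7 on the minus strand, chr19:44761038-44761711 for Pax2 on the plus strand and chr2:24443114-24444571 for Pax8 on the minus strand. All 6 are in coding sequence. The runs were 26, 26 and 27 bases long and ended 2143 to 5133 bases before the 3′ end of the transcript. Outside coding sequence, Pax3 and Pax6 share a 37-base run of a dinucleotide repeat, which is not shown.

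The genes lie apart from each other, Pax3 at chr1:78101267-78197134, Pax8 at chr2:24420560-24475599, Pax6 at chr2:105668900-105697364, Pax1 at chr2:147361925-147393295, Pax7 at chr4:139737062-139833528, Pax9 at chr12:56691767-56712822 and Pax2 at chr19:44756045-44837871. Genes on the opposite strand overlap Pax1, Pax2, Pax6, Pax8 and Pax9 in this annotation. Of these, AI646519 (overlap with Pax1), Gm15524 and Slc25a21 (both with Pax9) had rows of their own in the count table.

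The first comparison asked how the Pax genes of whole stembryos changed between 96 h and 120 h. Pax3 rose about 28.8-fold in mean CPM and Pax1 went from no UMI at all to a mean of 9.92 ± 1.47 CPM (SD, n = 2), and these were the 2 members called by the test. Pax9, Pax7 and Pax6 had higher means and Pax2 a lower mean at 120 h, each without passing the test. That test used time only. In a fit that paired replicates of the same number, given below, these genes were called as well, as were 17.0% of all genes. In edgeR's quasi-likelihood test, 6 of the 7 genes passed the filter on low counts and 2 of these 6 were called at an adjusted p below 0.05, where 0.845% of all 18114 genes tested were called. Of these 153 genes 105 rose and 48 fell, and without normalization factors the split was 97 and 25. Pax8 did not pass the filter. Cells and transcripts are summed in a whole library, so more cells of a type and more RNA per cell cannot be told apart.

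Pax1, the sclerotome regulator, had 0 UMIs in both 96 h libraries, 903 UMIs (10.96 CPM) in replicate 1 at 120 h and 236 UMIs (8.88 CPM) in replicate 2. It was at least 133-fold higher at 120 h, taking 3 counts per library as the floor for 96 h, and its edgeR adjusted p was 0.0213. Pax3 stood at 3.40 and 2.59 CPM at 96 h and at 102 and 70.8 CPM at 120 h, a log2 change of 4.73 ± 0.33 (SE, edgeR adjusted p = 0.0211). Both genes were called under all 11 alternatives to this test. The main test rested on 2 libraries per time.

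Pax9, the paralog of Pax1, stood at 0.0425 and 0.247 CPM (5 and 6 UMIs) at 96 h and at 3.96 and 3.99 CPM at 120 h. Its log2 change was 5.17 ± 0.75, with an edgeR adjusted p of 0.0633. Pax7, which shares muscle and neural roles with Pax3, stood at 1.14 and 0.741 CPM at 96 h and at 5.65 and 6.24 CPM at 120 h. Neither gene passed the test on time only.

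For Pax7, the log2 change was 2.51 ± 0.34 (edgeR adjusted p = 0.0590). Pax6, the neural patterning gene, stood at 1.06 and 1.11 CPM at 96 h and at 6.03 and 31.4 CPM at 120 h. Its replicates at 120 h therefore differed more than those of the other 5 tested members, and its log2 change was 3.96 ± 0.81 (edgeR adjusted p = 0.115). Pax2, a kidney and neural regulator, stood at 3.27 and 3.87 CPM at 96 h and at 0.655 and 0.978 CPM at 120 h, with a log2 change of -2.23 ± 0.31 (edgeR adjusted p = 0.0610). It was the member whose mean was lower at the later time. Pax8 had 3 and 0 UMIs at 96 h and 3 and 6 UMIs at 120 h, at or near the floor of 3 counts, and no fold is given.

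Replicates of the same number share a batch number and a chemistry in the deposited annotation, so a fit with the replicate number as a block was made as well. With this block, edgeR called all 6 tested members, with Pax2 lower and the other 5 higher at 120 h and adjusted p from 1.47e-06 for Pax3 to 0.00265 for Pax6. The block also raised the share called among all genes to 17.0%. That fit keeps 1 residual degree of freedom, against 2 without the block. Without replicate 1 at 96 h the unblocked fit called 4 members and 2.32% of all genes, without replicate 2 at 96 h it called 4 and 1.91%, and without replicate 1 at 120 h it called 3 and 0.583%.

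**Figure D1:**
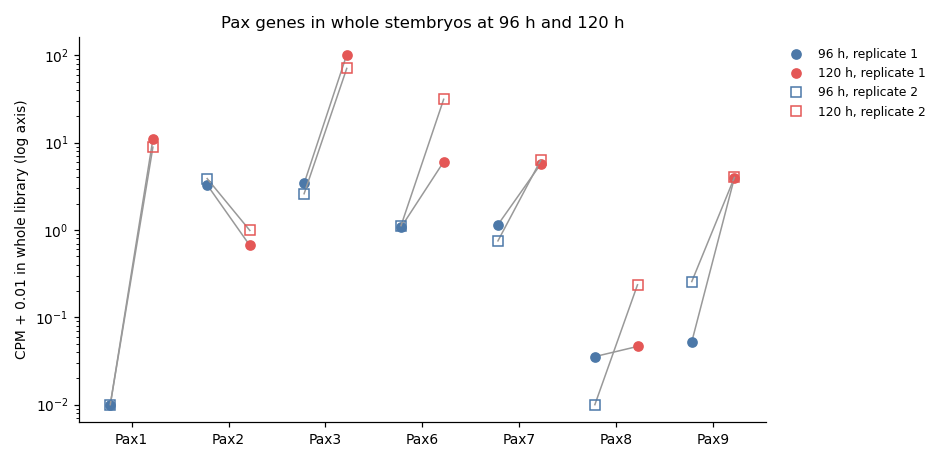
Level of each Pax gene in the 4 whole libraries, as CPM + 0.01 on a log axis, with 96 h in blue, 120 h in red, filled circles for replicate 1, open squares for replicate 2 and a line joining libraries of the same batch. Pax1 goes from 0 to 10.96 and 8.88 CPM, Pax3 reaches 70.8 and 102 CPM, Pax2 is lower at 120 h in both replicates, and Pax6 separates the replicates at 120 h (6.03 and 31.4 CPM).

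Where these transcripts lay was read from the clusters. Clusters had been drawn from the expression of many genes, which may include the Pax genes, so levels by cluster are a description and carry no test. Only sums over at least 50 cells of a cluster in a library are compared.

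Pax1 was almost restricted to the somite clusters. In Somite A it stood at 36.1 CPM in replicate 1, 23.5 CPM in replicate 2 and 38.1 CPM in the anterior part. In Somite B it stood at 21.3, 68.1 and 93.6 CPM in the same libraries. The order of the somite clusters thus turned around: Pax1 was higher in Somite A in replicate 1 and higher in Somite B in replicate 2 and in the anterior part. Their means, 24.7 ± 17.0 CPM (SD, n = 4 libraries, the posterior part with 1.18 CPM included) and 61.0 ± 36.7 CPM (n = 3), did not differ beyond this spread.

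Outside the somites, Pax1 was at or below 3.99 CPM in every such sum, the highest being the determination front of the anterior part. Somite A and Somite B gave 75.4% and 20.3% of all Pax1 UMIs in replicate 1 at 120 h, and 57.6% and 34.7% in replicate 2. A Pax1 UMI was found in 24.5% of Somite A cells of replicate 1 (median 15498 UMIs per cell), against 0.822% of its NMPs C cells (median 17619), a progenitor cluster in which the gene is not known to act. After thinning of each cell to 5000 UMIs these shares were 12.5% and 0.288%. The gap between the clusters remained at equal depth.

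Pax3 was high along the whole path from the determination front to the somites. It stood at 134, 133, 141 and 87.6 CPM in the determination front of replicate 1, replicate 2, the anterior part and the posterior part. In Somite A the values were 177, 158, 159 and 147 CPM, and in Somite B 293, 200 and 183 CPM, with no Somite B value in the posterior part. Somite B lay above Somite A in each of the 3 libraries that held both.

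Before the determination front, Pax3 was lower by far. Late PSM stood at 18.0, 30.3 and 7.25 CPM in replicate 1, replicate 2 and the posterior part at 120 h, and Early PSM at 0.789 and 1.15 CPM in the 96 h libraries. The few determination front cells of replicate 1 at 96 h, 27 in number, already had 71.6 CPM (95% exact Poisson interval 51.4 to 97.1, counting error only). They gave 10.25% of that library's Pax3 UMIs, while NMPs A gave 77.25%.

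In neural cells, Pax3 was intermediate. Spinal cord B stood at 48.5, 36.8 and 17.6 CPM in replicate 1, replicate 2 and the posterior part, and Spinal cord A at 25.4, 14.5 and 7.25 CPM. Spinal cord B was thus above Spinal cord A in each library, but the values of the clusters overlapped between libraries. The summed level of 8 somite markers in the same libraries was 104, 154 and 54.8 CPM in Spinal cord B and 177, 114 and 35.0 CPM in Spinal cord A. Its order over the libraries was that of Pax3 in Spinal cord A but not in Spinal cord B, where replicate 2 was highest. The part of these markers in the neural Pax3 level was not tested. The 5 neural crest markers summed to 2.35, 2.86 and 1.26 CPM in Spinal cord B and to 3.02, 2.67 and 1.41 CPM in Spinal cord A of these libraries. With libraries pooled, Snai2 was the highest of them, at 1.38 CPM in Spinal cord B and 1.22 CPM in Spinal cord A. Sox10 was at 0 in both, but it was at most 0.0715 CPM in any pooled cluster.

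Pax7 showed 2 separate sites. Somite B stood at 17.6, 24.1 and 22.3 CPM in replicate 1, replicate 2 and the anterior part, and Somite A at 2.38, 3.11 and 2.76 CPM. Spinal cord B stood at 20.9, 13.8 and 9.01 CPM in replicate 1, replicate 2 and the posterior part, and Spinal cord A at 4.84, 3.82 and 3.19 CPM. Somite B and Spinal cord B did not differ beyond their spread (21.3 ± 3.37 and 14.6 ± 5.99 CPM, n = 3 each), while Somite B was above Somite A in all 3 libraries that held both. A Pax7 UMI was found in 20.5% to 23.3% of Somite B cells and in 0.966% to 2.28% of determination front cells, or in 8.52% to 12.2% and 0.365% to 0.788% after thinning to 5000 UMIs.

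Pax6 was concentrated in Spinal cord B, with 52.2, 127 and 15.6 CPM in replicate 1, replicate 2 and the posterior part. The next clusters were NMPs C (5.40, 9.01 and 2.87 CPM) and Spinal cord A (4.53, 5.72 and 2.17 CPM), which overlapped. In all other clusters with at least 50 cells in a library Pax6 was at or below 3.80 CPM. Replicate 2 at 120 h had both more Spinal cord B cells (540 of 2683, against 287 of 4867 in replicate 1) and more Pax6 in them. A Pax6 UMI was found in 48.4% and 55.6% of these cells in replicates 1 and 2 and in 18.2% in the posterior part, against 2.13% of Somite B cells in replicate 1, whose median depth (16202 UMIs) was close to that of Spinal cord B (17485 UMIs). Thinned to 5000 UMIs, the values for Spinal cord B were 21.1%, 39.1% and 7.47%, and that for Somite B was 0.728%.

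Pax9 was low and spread over clusters of different origin. The posterior part held the only endoderm sum of enough cells, 183 of them, with 30 Pax9 UMIs and 11.3 CPM (95% exact Poisson interval 7.62 to 16.1). Spinal cord B stood at 9.19, 4.47 and 9.94 CPM in replicate 1, replicate 2 and the posterior part, Somite B at 5.01, 12.5 and 7.04 CPM, and Somite A at 8.90, 5.01 and 3.68 CPM in replicate 1, replicate 2 and the anterior part, with 0 UMIs in the 68 Somite A cells of the posterior part. The spinal cord and somite values overlapped between clusters. The endoderm value, from 1 library and so with no spread, lay above every Somite A value and within the range of Somite B. NMPs C and the determination front were at or below 4.24 CPM in every library. Its paralog Pax1 was at or below 1.43 CPM in Spinal cord B and at 0 in the endoderm sum.

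Pax2 was found mainly in progenitors. It stood at 5.17 CPM (341 UMIs) and 7.33 CPM (21 UMIs) in NMPs A of the 96 h libraries and at 4.11 CPM in NMPs B of replicate 2. At 120 h, NMPs C stood at 1.37, 1.91 and 2.06 CPM in replicate 1, replicate 2 and the posterior part, Spinal cord A at 1.14 to 1.21 CPM and Spinal cord B at 0.596 to 1.37 CPM. NMPs A came mostly from replicate 1 (2765 cells, against 315) and NMPs B mostly from replicate 2 (1632, against 43), so the library and the cluster cannot be told apart for them. Pax8 had its highest mean in Spinal cord B, at 0.435 ± 0.261 CPM (9 UMIs in 3 libraries), and no UMI in the determination front or the somite clusters of any library with at least 50 such cells.

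**Figure D2:**
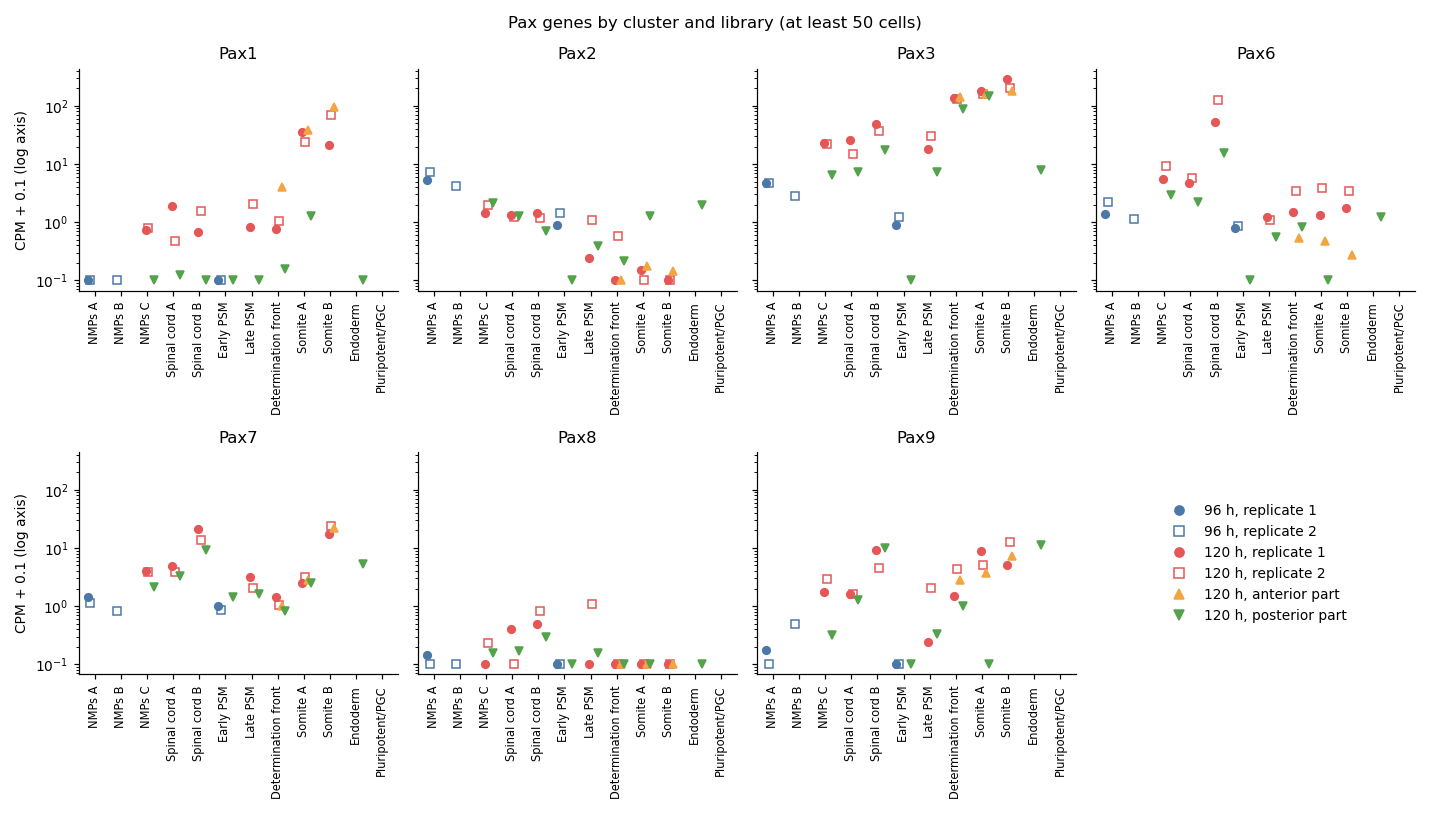
Level of each Pax gene in the 12 clusters, as CPM + 0.1 on a log axis, with 1 point per library that held at least 50 cells of the cluster, coloured by group and shaped by library. Pax1 is highest in Somite A and Somite B, Pax3 from the determination front on, Pax6 in Spinal cord B, Pax7 in Somite B and Spinal cord B, and Pax2 in the progenitors of 96 h, while Pax8 stays at or below 0.978 CPM throughout.

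**Figure D3:**
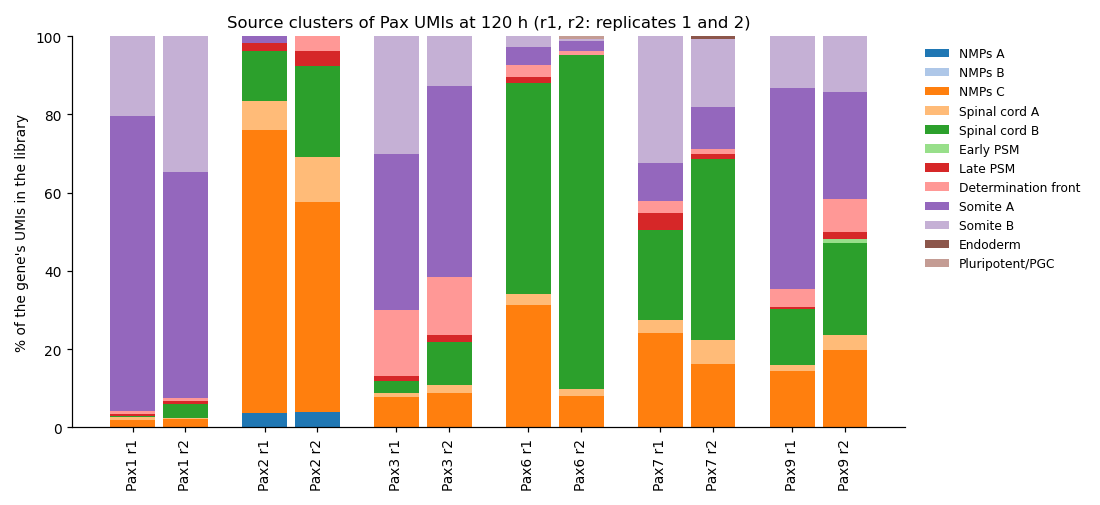
Share of the UMIs of 6 Pax genes that came from each cluster in the whole libraries at 120 h, in percent, with 1 stacked bar per gene and replicate (r1, r2). Somite A gives 75.4% and 57.6% of Pax1, Spinal cord B gives 53.7% and 85.4% of Pax6, NMPs C gives 72.2% and 53.8% of Pax2, and Pax7 and Pax9 are split between somite and neural clusters.

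The dissected pool gave the position of these transcripts along the axis, with 1 library per part and so no test. Intervals are exact and cover counting error only. A Pax1 UMI was found in 1214 of 3944 anterior cells and in 3 of 7887 posterior cells, and its level was 58.7 CPM against 0.0257 CPM (3179 and 3 UMIs), a ratio of 2280 with a 95% interval of 780 to 11063. Pax3 was 8.002 times higher in the anterior part (7.65 to 8.37), Pax7 3.49 times (3.06 to 3.98) and Pax9 2.34 times (1.96 to 2.79). Pax2 was 10.5 times higher in the posterior part (4.37 to 33.0) and Pax6 6.87 times (4.68 to 10.5). Pax8 had 0 anterior and 8 posterior UMIs.

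The anterior part held 3638 somite cells and the posterior part 69, and the posterior part held 3840 spinal cord cells against 37, and the part of this make-up in the ratios was not tested. Within the determination front, which both parts held (268 anterior and 1140 posterior cells), Pax3 was 1.61 times higher in the anterior part (1.47 to 1.77). Pax9 was 2.95 times higher there (1.26 to 6.76), and Pax1 had 18 anterior UMIs and 1 posterior UMI, a ratio of 66.5 (10.5 to 2770). Within Somite A, Pax3 differed by a ratio of 1.08 (0.906 to 1.31). Pax1 in Somite A had 993 UMIs in 1881 anterior cells and 1 UMI in 68 posterior cells, a ratio of 32.2 (5.77 to 1274).

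The change over time was then tested inside cell classes. NMP and PSM were the classes with at least 50 cells in each of the 4 whole libraries, and the others, which include the somite and spinal cord clusters where most Pax transcripts lay, could not be tested. In NMP cells, Pax3 stood at 4.69 and 2.96 CPM at 96 h and at 22.8 and 21.6 CPM at 120 h, with a log2 change of 2.39 ± 0.29 (edgeR adjusted p = 0.0945). Pax6 stood at 1.28 and 1.26 CPM at 96 h and at 5.39 and 8.70 CPM at 120 h, with a log2 change of 2.34 ± 0.33 (edgeR adjusted p = 0.111). Neither gene was called without the replicate block. Pax2 had the opposite sign in these cells, at -1.67 ± 0.31 (edgeR adjusted p = 0.149).

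Without the block, edgeR called 0 of the 6 Pax genes tested in NMP cells, and it called 0.00642% of all 15584 genes, which is 1 gene. All 6 had an unadjusted p under 0.05, as had 11.6% of all genes. DESeq2 called 5 of the members and 1.80% of all genes. With the replicate block, edgeR called all 6, at adjusted p from 0.00221 for Pax3 to 0.0297 for Pax7, where 7.20% of all genes were called. Each of the classes joins several clusters: the NMP cells of 96 h were nearly all NMPs A and B and those of 120 h nearly all NMPs C, so the change over time and the change of cluster cannot be told apart.

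In PSM cells Pax3 stood at 0.876 and 1.14 CPM at 96 h and at 17.7 and 25.9 CPM at 120 h. It was the only member that passed the filter there, and it rose with a log2 change of 4.33 ± 0.32 (edgeR adjusted p = 0.0128), a call made in all 10 alternatives that kept it in the test. The share called among all 12021 genes was 0.433%, and 6.89% with the replicate block. With a stricter filter of 50 counts in 2 libraries Pax3 was not tested. The other members had 0 to 43 UMIs in any PSM sum. Of the PSM cells at 96 h, 2006 of 2055 and 601 of 606 were Early PSM, and at 120 h 427 of 433 and 110 of 140 were Late PSM, so here too the change over time and the change of cluster cannot be told apart.

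The change of Pax3 was larger in PSM than in NMP cells, each compared between different clusters at the 2 times. The difference of the 2 log2 changes was 2.07 ± 0.31 in the edgeR interaction test (adjusted p = 0.000628), in which 1.56% of all 14842 genes were called. Without replicate 1 at 96 h it was 1.14 ± 0.57 (edgeR adjusted p = 0.541), and the other 5 alternatives kept the call. Of the other 4 members tested, 0 were called, and 1 of them, Pax6, had an unadjusted p under 0.05, as had 9.21% of all genes. The difference for Pax6 was -1.69 ± 0.57 (adjusted p = 0.226).

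Somite markers were also higher at 120 h in these classes. The summed level of 8 somite markers, which include Tcf15, Meox1 and Uncx, was 13.6 and 25.8 CPM in the NMP cells of 96 h, against 77.5 and 79.0 CPM in those of 120 h. In PSM cells it was 234 and 363 CPM at the earlier time, against 724 and 648 CPM at the later one. At least 7 of the 8 markers had a UMI in each of these sums. In the posterior part, which held few somite cells, NMP cells had 42.4 CPM of somite markers and 6.39 CPM of Pax3, and PSM cells had 630 CPM of somite markers and 6.95 CPM of Pax3. In the whole 120 h libraries Pax3 stood at 22.8 and 21.6 CPM in NMP cells and at 17.7 and 25.9 CPM in PSM cells. How far markers and Pax3 change together was not tested.

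Pax1, highest in somites, was read in the same cells. It stood at 0.626 and 0.650 CPM in NMP cells of the 120 h libraries and had 0 UMIs in those of the posterior part. The ratio of Pax3 to Pax1 UMIs was 4.91 in Somite A and 13.7 in Somite B of replicate 1 and 36.4 in its NMPs C, and it was 6.74, 2.94 and 32.6 in replicate 2. The NMPs C ratios rested on 18 and 5 Pax1 UMIs. In Late PSM the ratio was 25 and 15.5, from 5 and 2 Pax1 UMIs, and in the determination front, from 7 and 2 Pax1 UMIs, 201 and 141. In these libraries the ratios of NMPs C and Late PSM lay between those of the somites and of the determination front. With so few Pax1 UMIs outside the somites, this order is not secure. The part of free somite RNA or of cells between clusters in the Pax3 level of progenitors was not tested beyond these values.

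**Figure D4:**
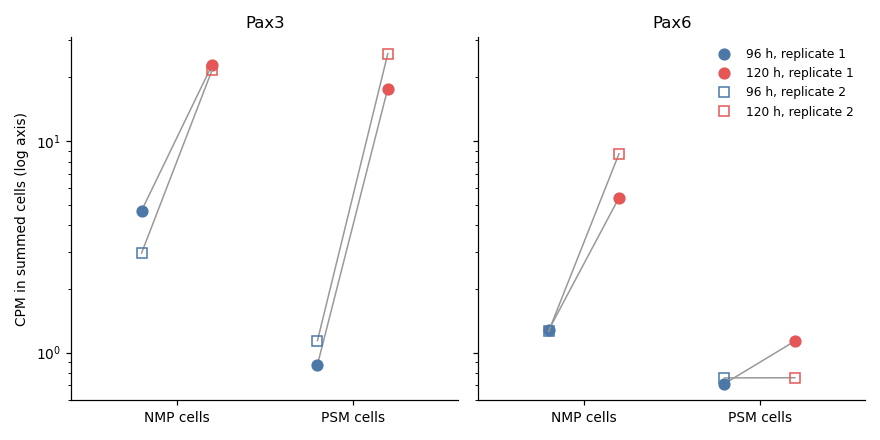
Level of Pax3 and Pax6 in summed NMP and PSM cells of the 4 whole libraries, in CPM on a log axis, with 96 h in blue, 120 h in red, filled circles for replicate 1, open squares for replicate 2 and a line joining libraries of the same batch. Pax3 is higher at 120 h in both classes with the steeper lines in PSM cells, and Pax6 is higher at 120 h in NMP cells (5.39 and 8.70 CPM) but stays between 0.713 and 1.13 CPM in PSM cells.

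Which transcripts went along with a Pax UMI in the same cell was described within clusters. Cells of 1 cluster and library with and without a UMI of a gene were summed. List genes that reached 10 CPM on either side in at least 1 library were compared, so a gene could enter through its higher side alone. A gene is named where its level differed over 1.5-fold in the same direction in every library with at least 20 cells on each side. These are descriptions of cells and carry no test.

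A few list genes were higher in somite cells with a Pax1 UMI. In Somite B, where 45 list genes could be compared, 4 were higher and 1 lower in cells with a Pax1 UMI. Pax9 was higher by 2.81 to 6.03 times, Sox9, a factor of cartilage precursors, by 3.62 to 4.04 times and Ets1, an ETS factor, by 1.88 to 3.78 times. Sox9 reached 10 CPM only in the cells with a Pax1 UMI of replicate 2, on 4 UMIs. Pax9 too reached 10 CPM only in cells with a Pax1 UMI, with 2.87, 4.97 and 3.90 CPM in those without. Both were thus compared through their higher side alone. Zic1, a zinc finger gene of dorsal tissues, was the lower one, with 12.6 against 27.5 CPM in replicate 1, 0 against 8.70 CPM in replicate 2 and 0.291 against 0.624 CPM in the anterior part, the last on 3 and 8 UMIs. The median depth of cells with a Pax1 UMI was 0.931 to 1.34 times that of cells without.

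In Somite A the same split gave 39 genes, of which 3 were higher and 0 lower. Pax9 was higher by 3.10 to 5.19 times, Sox9 by 1.76 to 2.63 times and Nes, an intermediate filament gene, by 1.69 to 1.74 times, at depths 1.007 to 1.029 times those of the cells without. In the cells without, Pax9 and Sox9 reached at most 5.78 and 6.78 CPM, so here too both entered through their higher side alone. Read from the other side, Pax1 was 1.97 to 3.47 times higher in Somite A cells with a Pax9 UMI and 2.04 to 5.90 times higher in such cells of Somite B. Of the other list genes, Lhx1 was lower with Pax9 in Somite A, with 0 to 3 UMIs against 54 to 187, and Ets1 and Sox9 were higher with Pax9 in Somite B, by 1.62 to 2.96 and 2.17 to 3.23 times. Lhx1 and Sox9 reached 10 CPM on their higher side alone in these splits.

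Counted as cells, 127 Somite A cells had UMIs of both Pax1 and Pax9, where the shares within each library would give 60.5 if the genes were independent. In Somite B there were 113 such cells against 64.3. Thinned to 5000 UMIs per cell, the ratios of found to independent were 2.47 and 1.98. For Pax1 and Pax3 in thinned cells of Somite B, 234 were found against 306, a ratio of 0.766, with 0.817, 0.686 and 0.764 in replicate 1, replicate 2 and the anterior part, and the Pax3 level of Somite B cells with a Pax1 UMI was 0.681 to 0.754 times that of cells without. In Somite A the ratio was 0.843. The thinned ratio for Pax3 and Pax7 came to 1.10 in Somite B and 1.28 in Spinal cord B. For Pax3 and Pax6 it was 1.13 in Spinal cord B.

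**Figure D5:**
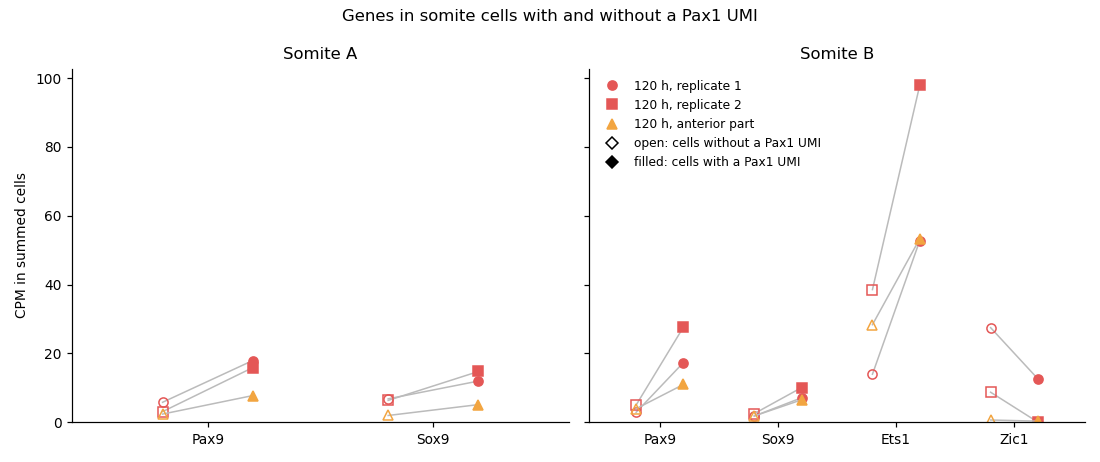
Level of genes that differed between somite cells with a Pax1 UMI (filled) and without one (open), in CPM from 0, with 1 pair of points per library: red circles for replicate 1, red squares for replicate 2 and orange triangles for the anterior part, all at 120 h. Pax9 and Sox9 are higher with Pax1 in both somite clusters, Ets1 in Somite B, and Zic1 is lower there. Pax9 and Sox9 entered the comparison through cells with a Pax1 UMI alone. Nes of Somite A is not drawn.

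In Late PSM, cells with a Pax3 UMI differed in many list genes. Of 43 genes, 10 were higher and 5 lower in both libraries with enough such cells, replicate 1 and the posterior part. The higher ones included genes of the somite and its boundary. Uncx, a homeobox gene active posteriorly in each segment, was higher by 3.16 to 4.74 times, Meox1 by 2.18 to 3.09 times, Tcf15 by 1.96 to 2.77 times and Mesp2, which sets the segment boundary, by 1.84 to 3.05 times.

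The lower genes included regulators of PSM identity and segmentation. Tbx6, a regulator of PSM identity, stood at 0.482 and 0.540 times the level of cells without Pax3, the clock gene Hes7 at 0.491 and 0.596 times, Fgf17 at 0.502 and 0.545 times and Cdx2 at 0.555 and 0.655 times. Cited1 was the fifth. In NMPs C, 4 of 43 genes were higher with Pax3 and 0 lower: Uncx, Tcf15, Meox1 and Foxc2, all somite markers, by 1.68 to 15.5 times. Of these, Uncx and Foxc2 reached 10 CPM only in cells with a Pax3 UMI. Cells with Pax3 were 1.04 to 1.21 times as deep as cells without it in both clusters.

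In Spinal cord B, 0 of 47 genes met the rule for Pax3 and 0 of 45 for Pax6. For Pax7, 3 of 47 were lower: Nkx1-2, a progenitor gene, stood at 0.586 to 0.665 times, and Uncx and Aldh1a2 rested on 0 to 19 UMIs in the cells with Pax7. For Pax9, Zic1 was higher by 1.59 to 2.40 times, Snai2 by 1.63 to 6.12 times on 2 to 3 UMIs in cells with Pax9, and Dbx1, a gene of intermediate interneuron progenitors, was lower, with 0 to 2 UMIs in cells with Pax9 and 40 to 99 in cells without. Snai2 and Dbx1, and Uncx in the split by Pax7, reached 10 CPM on their higher side alone.

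Genes with a level most like each member were read over the 30 sums of a cluster in a library with at least 50 cells, as Pearson's r of log2(CPM + 1), for genes that reached 50 CPM. The sums share libraries and cells of related clusters, and r is given without a test. Pax1 was followed most closely by Fap (0.970), Map4k5 (0.956), Atl1 (0.947), Fxyd6 (0.928) and Cers6 (0.923). For Pax3 these were H2afy2 (0.946), Uncx (0.938), Foxd1 (0.930), H1f0 (0.918) and Efnb2 (0.916). For Pax6 they were Irx5 (0.881), Fam181b (0.875), Scube2 (0.873), Ednrb (0.872) and Sox21 (0.870), of which Irx5 and Sox21 are neural transcription factors.

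The other members had lower r. Pax2 was followed by H2-Bl (0.860), Msx1 (0.849), Ezr (0.848), Cystm1 (0.845) and Mcc (0.842), and Pax7 by Ptn (0.856), Ccdc34 (0.832), Armcx3 (0.809), Lgr4 (0.777) and Ormdl1 (0.755). Pax9 was followed by Tgfb2 (0.859), Armcx3 (0.796), Cnn3 (0.793), Selenop (0.791) and Igfbp5 (0.786). Among the members, r was 0.727 for Pax1 and Pax3, 0.708 for Pax7 and Pax9, 0.619 for Pax3 and Pax9, 0.592 for Pax1 and Pax9 and 0.423 for Pax3 and Pax7, while Pax2 had a negative r with Pax1 (-0.557), Pax3 (-0.557), Pax9 (-0.371) and Pax7 (-0.220).

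Genes that act beside the Pax genes were compared in whole libraries by lists. The median log2 change over all 18114 genes tested was 0.016, beside which each list's median is given. Of all these genes 0.845% were called, 105 rising and 48 falling. With the replicate block 17.0% were called, 1611 rising and 1477 falling. The counts of each list are to be read beside these shares. In the dermomyotome and muscle list, 5 of 10 tested genes rose and 0 fell in edgeR (median 2.53), with 7 rising with the replicate block. Meox2 rose from 0.151 ± 0.039 to 15.6 ± 7.08 CPM (SD, n = 2; log2 change 6.46, edgeR adjusted p = 0.0260), and Meox1 from 9.27 ± 3.75 to 225 ± 30.4 CPM (4.47, adjusted p = 0.0278). Both are homeobox genes needed for somite derivatives. Dmrt2, a gene of the dermomyotome, rose by 4.46 (adjusted p = 0.0347).

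In the sclerotome list, 2 of 7 tested genes rose and 0 fell (median 2.04), and 6 rose with the block. Uncx rose from 0.371 ± 0.233 to 93.4 ± 33.7 CPM (7.60, edgeR adjusted p = 0.0213) and Twist1 from 13.8 ± 5.27 to 58.6 ± 2.14 CPM (2.04, adjusted p = 0.0464). In the list of Eya and Dach genes and their partners, which work with Pax3 in muscle precursors, 3 of 9 rose and 0 fell (median 0.81, 5 rising with the block), among them Eya2 by 3.98 (edgeR adjusted p = 0.0265) and Eya1 by 3.94 (adjusted p = 0.0367).

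In the ventral and intermediate neural tube list 0 of 10 tested genes were called (median -0.25, 4 rising with the block), although Irx3 stood at 6.82 ± 3.85 and 33.6 ± 25.5 CPM (2.24, edgeR adjusted p = 0.196). In the dorsal neural tube list 0 rose and 1 fell of 7 (median 0.77, 2 rising and 1 falling with the block), the fall being that of Msx1, from 72.4 ± 6.07 to 20.02 ± 5.41 CPM (-1.95, adjusted p = 0.0278). Zic1, which like Zic2 and Zic5 acts in dorsal neural cells, stood at 5.02 ± 0.868 and 12.3 ± 2.88 CPM (1.21, adjusted p = 0.158). Among neural progenitor and neuron genes 1 of 11 rose (median -0.15, 5 rising and 1 falling with the block), namely Ncam1, a neural adhesion gene, by 1.25 (adjusted p = 0.0461).

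In the neural crest list 1 of 5 rose (median 0.14, 1 rising and 1 falling with the block), which was Ets1, by 3.84 (edgeR adjusted p = 0.0361). Crabp1, a retinoic acid binding protein, stood at 338 ± 175 and 83.8 ± 58.2 CPM (-2.10, adjusted p = 0.179). In the intermediate mesoderm and kidney list, the partners of Pax2 and Pax8, 1 of 10 rose and 0 fell (median 0.21, 3 rising and 2 falling with the block). That gene was Six2, with no UMI at 96 h and 1.92 ± 0.217 CPM at 120 h. In the foregut and pharyngeal endoderm list, a tissue that uses Pax9, 0 rose and 1 fell of 8 (median -2.02, 5 falling with the block), which was Epcam, from 54.3 ± 20.3 to 8.39 ± 2.61 CPM (-2.78, adjusted p = 0.0361).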

How the data were processed

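Single cells of stembryos had been captured with droplet chemistry, and the authors aligned reads to mm10 with Cell Ranger 6.0, filtered cells, and clustered and named them with Seurat 4.0.2. The deposited table holds raw counts of UMIs per gene and cell, without normalization, and the deposited annotation gives each cell's library, cluster, total and mitochondrial percent. In all 26968 cells the column sums equalled the annotated totals. The highest mitochondrial percent was 7.98, and totals ran from 0.302 to 2.48 times the library mean. No doublet caller was run, and 2166 cells above 1.5 times the mean were left out in an alternative.

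Counts were summed per library, per cluster and library, or per class and library, and given as CPM of the sum's total. Sums were compared with edgeR 4.0.16 in R 4.3.3 (TMM, filterByExpr, quasi-likelihood test, Benjamini-Hochberg over all genes, adjusted p under 0.05), on 4 whole libraries, and for the interaction on 8 class sums with library as a block. DESeq2 1.42.0 was an alternative. The other alternatives were no normalization factors, no filter, a filter of 50 counts in 2 libraries, the replicate block, each library left out in turn, and the dissected parts summed to 1 more sample at 120 h. Same-numbered replicates share a batch number in the annotation, and their differences from the group means correlated in whole libraries (r = 0.560 over 18114 genes), NMP cells (0.537) and PSM cells (0.424). The numbers were therefore taken to pair the samples in the replicate block. The main test used time only and so left this pairing out. Thinned shares draw 5000 UMIs per cell and leave out 307 shallower cells. Intervals are 95% exact Poisson, exact conditional or Wilson intervals and cover counting error only. The edgeR script was tested on simulated data.

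All 7 members are named. Of other genes, the 5 most like each member with at least 200 UMIs, and up to 4 per list (those called with the largest change, or else those of highest mean CPM), could be named, besides genes that met the rule for cells with and without a UMI. The members and lists were chosen with earlier results of these data known. Some genes that met these rules are counted but not reported here.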

Additional observations from a re-analysis of the deposited data

Results flagged for a closer look

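The change of Pax3 from 96 h to 120 h differed between cell classes by the test of the difference itself. It was 2.07 ± 0.31 larger on the log2 scale in PSM than in NMP cells (edgeR interaction, adjusted p = 0.000628), and both classes had higher Pax3 at 120 h in both replicates. In both classes the cells of 96 h and of 120 h came mostly from different clusters, so a difference of time and one of cluster cannot be told apart. Without replicate 1 at 96 h the difference was 1.14 ± 0.57 (adjusted p = 0.541). The summed somite markers, given beside this result above, were also higher at 120 h in both classes, and their part in it was not tested.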

How the results depend on the processing

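With 2 libraries per time, the number of Pax genes called depended on the setting, while Pax1 and Pax3 in whole stembryos were called under all 11 alternatives and Pax3 in PSM cells under all 10 that tested it. In whole stembryos, where 2 were called, DESeq2, no filter on low counts and the replicate block each called 6, where 1137, 1199 and 3088 of all genes were called, the dissected pool as 1 more sample called 5 (2.64% of all genes), and leaving out 1 library gave 2 to 4. In NMP cells, where 0 were called, DESeq2 called 5, no filter 6 and the replicate block 6 (432, 1010 and 1122 of all genes), and leaving out 1 library gave 0 to 3, 1 in the absence of the 96 h replicate 1 (1.83% of all genes) and 3 in that of the 96 h replicate 2 (1.09%). In PSM cells, where 1 was called, no filter gave 2 (2.30% of all genes), and the filter of 50 counts gave 0 because Pax3 was then not tested. The replicate block kept the call of Pax3 there. For the difference between classes, where 1 was called, leaving out 1 library gave 0 to 1. The cause of these shifts was not tested, apart from the filter's. Over all genes, leaving out 1 library gave 100 to 399 calls in whole libraries against 153.

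The difference between classes changed sign for Pax7, from -0.0086 to 0.016 without normalization factors, and 0.0078 under the filter of 50 counts, and with 1 library left out it ran from -0.75 to 0.12 (0.073 without the 96 h replicate 2). For Pax2 it was -0.14, and with 1 library left out it ran from -0.83 to 1.07 (0.0035 without the 96 h replicate 2). Neither gene was called in any of these. Without normalization factors the median of all genes in PSM cells was 0.11, so changes there are relative to that shift. The alternatives for other cell classes were not run, since no other class had 50 cells in each whole library.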

Other observations

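The anterior part held 21 cells named Spinal cord A, with 44 Pax3 UMIs at 302 CPM (95% exact Poisson interval 219 to 405). Their 8 somite markers summed to 1489 CPM and their 10 spinal cord markers to 343 CPM. In the other 120 h libraries, Spinal cord A had somite markers at 177, 114 and 35.0 CPM and spinal cord markers at 626, 728 and 670 CPM in replicate 1, replicate 2 and the posterior part. The Pax3 level of these 21 cells lay above Somite A (159 CPM) and Somite B (183 CPM) of the same library. Its interval held the highest Somite B value of any library, 293 CPM. These cells entered no comparison between clusters.

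The endoderm of the posterior part, 183 cells, also held 21 Pax3 UMIs (7.91 CPM), 14 Pax7 UMIs (5.27 CPM) and 5 Pax2 UMIs (1.88 CPM) beside its 30 Pax9 UMIs. Of 13 Pluripotent/PGC cells in replicate 2 at 120 h, 4 had a Pax6 UMI (6 UMIs, 35.9 CPM), and of 28 in the posterior part, 6 did (7 UMIs, 11.5 CPM). These clusters were too small in the other libraries to be compared.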
